A study of Mus musculus with 35 samples.

Results

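The nuclear genes of oxidative phosphorylation were followed across single-cell CEL-seq libraries of mouse small intestine and of organoids grown from it. Members were all rows of the count tables whose symbol began with Nduf, Sdha, Sdhb, Sdhc, Sdhd, Uqcr, Cox4, Cox5, Cox6, Cox7, Cox8 or Atp5 and that held at least 20 counts over all wells used. Of 23538 gene rows 94 matched these prefixes and 88 passed the minimum. They comprised 37 genes named for complex I, 7 complex I assembly factors (Ndufaf genes), 6 genes of complex II, 8 of complex III, 13 of complex IV and 17 of complex V. The member nearest above the minimum was Cox6b2 with 56 counts. The rows below it were Cox4i2 with 2 counts, Cox6a2 with 1 count, and Cox7b2, Cox8b, Cox8c and Ndufa4l2 with 0 counts each. The rule goes by name, so it also took in genes whose products are known today by another role. Ndufa4 is now counted as a subunit of complex IV, Cox7a2l acts in the assembly of respiratory supercomplexes, and Atp5sl and Atp5s are not subunits of the ATP synthase.

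Oxidative phosphorylation makes most of the ATP of many differentiated cells. Electrons from NADH enter the inner mitochondrial membrane at complex I and those from succinate at complex II, pass through complex III to complex IV, which reduces oxygen, and the proton gradient built on the way drives complex V, the ATP synthase. Most subunits are encoded in the nucleus and a minority in mitochondrial DNA, whose genes are not analysed here. In the intestinal epithelium, absorptive enterocytes are rich in mitochondria, and the balance of respiration and glycolysis differs between crypt stem cells, Paneth cells and the cells of the villus.

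All mice were of the C57BL/6 background. Organoids came from small intestinal crypts and were kept in Matrigel with EGF, R-spondin 1 and Noggin. Whole organoids came from 1 wild-type mouse (2 passages), Reg4-positive cells from organoids of 1 Reg4-dsRed knock-in mouse (2 passages), and Lgr5-positive cells from organoids of 1 Lgr5-GFP-DTR mouse (1 library). From freshly isolated intestine, Lgr5-positive cells were sorted from Lgr5-EGFP mice (2 plates), and YFP-positive cells were sorted 5 days after an Lgr5-driven Cre had switched on YFP from the Rosa26 locus (5 plates), so the latter are labelled stem cells together with their progeny. Replicates of an organoid group are passages of 1 culture. Replicates from intestine are 96-well plates with no animal named, so the p-values here speak only to variation among these passages and plates, which may be technical. The Lgr5-positive organoid table was matched to its library by the table's name alone.

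Of 1680 wells 1209 held at least 1500 counts of genes and were summed per passage or plate, here called a library, which gave 12 libraries of 287001 to 2860636 counts. Counts are of transcript molecules, tagged at the 3′ end, so they need no scaling by gene length. Levels are in CPM, counts relative to the library total after TMM scaling. Lgr5 stood at 251 CPM in the Lgr5-positive organoid library, against 29.9 and 62.8 CPM in whole organoids and 194 and 82.9 CPM in Reg4-positive libraries. In the Lgr5-EGFP libraries it stood at 147 and 112 CPM, against 47.75 to 96.3 CPM in the YFP libraries. The level of Reg4 was 1486 and 106 CPM in whole organoids, and after sorting on its dsRed reporter it was 2603 and 7487 CPM. Several libraries stood apart. The Lgr5-EGFP wells held a median of 3978 and 4918 genes and 0.921% and 0.943% spike-in RNA, against 2311 to 2850 genes and 6.78% to 8.81% spike-in in the YFP libraries, and in a clustering of wells the 4 clusters that held most of them held 1 YFP well, so the cells sorted and the handling of the libraries cannot be told apart in that comparison. In Reg4-positive replicate 2, 3 wells held 49.3% of the counts, and Paneth cell markers made up 16.9% and 6.34% of the counts of the Reg4-positive libraries. Summed libraries cannot tell fewer cells of a type from less RNA per cell.

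The members were abundant in every group. Together they made up 4.37% and 4.08% of gene counts in whole organoids, 1.80% and 3.22% in Reg4-positive cells, 3.04% in Lgr5-positive organoid cells, 3.17% and 3.12% in Lgr5-EGFP cells and 4.18% to 4.97% (median 4.57%) in YFP cells. All libraries sorted directly for Reg4 or Lgr5 were below all whole organoid and YFP libraries. The Reg4-positive pair was the most uneven. By the labels each of its replicates comprised samples I, II and III, whereas the wells used here are those of 1 plate of replicate 1 and 2 plates of replicate 2. In replicate 2 a plate of 9 kept wells stood at 1.47% and a plate of 72 kept wells at 3.37%. The 88 genes had a median level of 341 CPM over the 12 libraries, and 65 of them exceeded 100 CPM in every library.

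**Figure D1:**
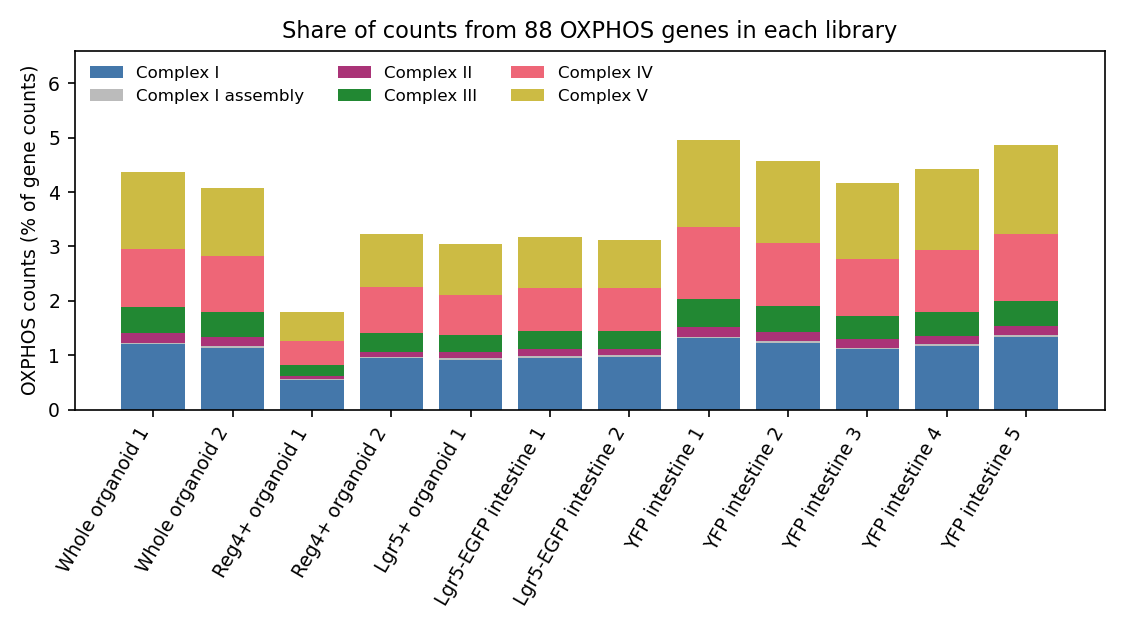
Percent of all gene counts that came from the 88 members in each of the 12 libraries (vertical axis), stacked by complex. The 5 YFP libraries reach 4.18% to 4.97%, the Lgr5-EGFP libraries 3.17% and 3.12%, and Reg4-positive replicate 1 is lowest at 1.80%.

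The division of these counts between the complexes stayed within narrow ranges. Complex V took 28.0% to 33.7% of the members' counts, complex I 26.3% to 31.0%, complex IV 24.02% to 26.7%, complex III 9.78% to 11.2% and complex II 2.97% to 4.203%. The assembly factors, which help build complex I but are not part of it, took 0.492% to 1.25%. The leading gene of a complex was often the same across groups. Uqcrh, a subunit of complex III, led its complex in all 5 groups, from 509 CPM in Lgr5-EGFP cells to 996 CPM in whole organoids. Atp5b, the catalytic beta subunit of the ATP synthase, led complex V in YFP cells (2393 CPM), Lgr5-EGFP cells (960.5 CPM) and Lgr5-positive organoid cells (1128 CPM). Atp5g3, 1 of 3 genes for the same c subunit, led it in whole organoids (2124 CPM) and Reg4-positive cells (1054 CPM). In complex IV the first place went to Cox8a in whole organoids, Reg4-positive and YFP cells (1524, 893 and 1558 CPM), to Cox7c in Lgr5-positive organoid cells (999 CPM) and to Cox6c in Lgr5-EGFP cells (936 CPM). Complex II was led by the iron-sulfur subunit Sdhb in whole organoids (527 CPM) and YFP cells (525 CPM), and by the membrane anchor Sdhc in Reg4-positive (261 CPM), Lgr5-positive (234 CPM) and Lgr5-EGFP cells (239.6 CPM). Complex I was led by Ndufa6 in the 3 organoid groups (772, 562 and 470.35 CPM), Ndufa2 in Lgr5-EGFP cells (358 CPM) and Ndufa4 in YFP cells (803 CPM).

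The comparison with the most members called was that of YFP progeny with Lgr5-EGFP stem cells of the intestine. Of 87 members tested, 71 were called higher in YFP cells and 1 lower (edgeR quasi-likelihood test, false discovery rate 0.05), beside 14.7% of all 9065 genes called higher, 11.0% called lower and 25.7% called in either direction. The median difference was 0.88 on the log2 scale for the members and -0.00 for all genes. Called higher were 33 of 37 complex I genes, 4 of 6 of complex II, 7 of 8 of complex III, 11 of 12 of complex IV and 16 of 17 of complex V. None of the 7 assembly factors was called higher, and 1, Ndufaf4, was called lower. The median log2 difference was 1.25 for complex V, followed by IV (1.02), III (0.90), II (0.86) and I (0.78), and was 0.08 for the assembly factors. As shares of all counts, the YFP mean was 1.70 times the Lgr5-EGFP mean for complex V, 1.48 times for IV, 1.44 times for II, 1.40 times for III and 1.28 times for I, and 0.759 times for the assembly factors. In 72 of the 87 members the lowest YFP library exceeded the highest Lgr5-EGFP library, beside 18.0% of all genes, and in 3 the order was the opposite, beside 18.3%. The 15 members not called were 6 assembly factors, Sdhaf1 and Sdhaf2, which help assemble complex II, Atp5s, Ndufa1, Ndufa2, Ndufa12, Ndufs1, Uqcrc1 and Cox4i1, with log2 differences from -0.54 (Sdhaf2) to 0.87 (Uqcrc1). Cox6b2 was too low in these groups to be tested. Enterocyte markers took a smaller share of counts in YFP cells (0.338% to 0.993%) than in Lgr5-EGFP cells (1.20% and 1.12%), while Paneth markers took 1.55% to 7.17% against 0.876% and 2.32%. Their part in the result was not tested.

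Level has to be read beside these counts, because abundant genes in general were higher in the YFP libraries. Among genes that are no members, 9.76% were called higher at a mean under 20 CPM, 9.12% at 20 to 100 CPM, 27.6% at 100 to 300 CPM, 57.5% at 300 to 1000 CPM and 85.5% at 1000 CPM or more. The members gave 1 of 1, 2 of 12, 19 of 21, 43 of 47 and 6 of 6 in the same ranges. Among the 3 ranges from 100 CPM upward the excess over other genes was widest at 100 to 300 CPM, and above 1000 CPM most other genes were called higher too. Their median log2 difference was 0.82 against 0.21 at 100 to 300 CPM, 0.95 against 0.61 at 300 to 1000 CPM, and 1.01 against 0.90 above. Cytosolic ribosomal protein genes were called higher in 67 of 76 with a median log2 difference of 0.86. The scaling also mattered: with plain library totals the median of all genes was -0.44 and that of the members 0.45. On those totals 47 members were called higher and 3 lower (Ndufaf4, Sdhaf2 and Atp5s), beside 7.09% and 36.6% of all genes. With wells thinned to 1500 counts 41 of 76 members were called higher and none lower, beside 11.4% and 8.39% of all genes tested.

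**Figure D2:**
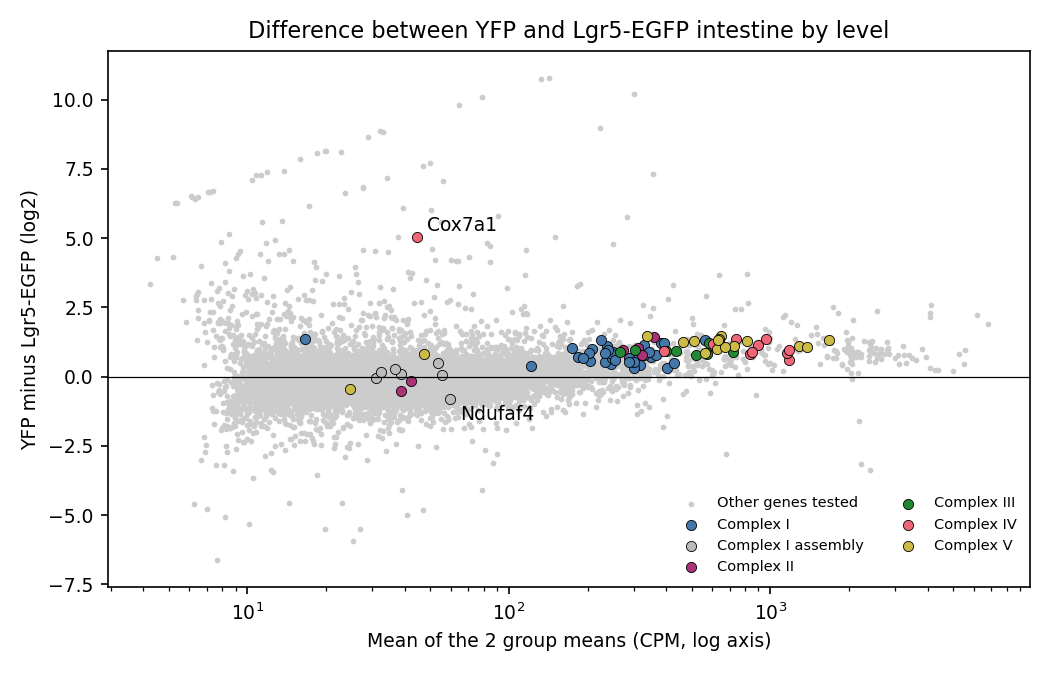
Difference between YFP and Lgr5-EGFP intestine (log2, vertical axis) against the mean of both group means (CPM, log axis), with 1 point per gene, members coloured by complex and other tested genes in grey. Most members lie above 0 at more than 100 CPM, the assembly factors lie near 0 at lower levels, and Cox7a1 has the largest difference of the members, 5.03.

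Complex V supplied 6 of the 10 members with the smallest adjusted p in that comparison. Atp5b stood at 989.8 and 931 CPM in the Lgr5-EGFP libraries and at 2316 to 2439 CPM (median 2407) in the YFP libraries, a log2 difference of 1.32 ± 0.13 (SE, adjusted p = 1.8e-05, edgeR). Atp5d, the delta subunit of the catalytic head, stood at 349.6 and 335 CPM against 883 to 1027 CPM (median 925), a log2 difference of 1.48 ± 0.14 (adjusted p = 1.9e-05, edgeR). In both genes the lowest YFP value was more than 2 times the highest Lgr5-EGFP value. Atp5f1 and Atp5h, which belong to the stalk that holds the catalytic head, differed by 1.47 ± 0.16 and 1.37 ± 0.16 on the log2 scale, and Atp5o, which joins that stalk to the head, by 1.32 ± 0.14. The c subunit forms the rotor ring, and its gene Atp5g2 differed by 1.27 ± 0.14, from 358 and 387 CPM to 813 to 986 CPM (median 886). The remaining 2 genes for the same protein were also called higher, Atp5g1 by 1.27 ± 0.15.

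In complex IV, Cox6a1, a regulatory subunit, stood at 533 and 544 CPM in Lgr5-EGFP cells and at 1189.7 to 1544 CPM (median 1426) in YFP cells, a log2 difference of 1.36 ± 0.15 (adjusted p = 4.2e-05, edgeR). Ndufa4 stood at 328 and 316 CPM against 722 to 902 CPM (median 795), a log2 difference of 1.32 ± 0.15 (adjusted p = 5.8e-05, edgeR). Sdhb stood at 203 and 188 CPM against 431 to 600.5 CPM (median 529), a log2 difference of 1.43 ± 0.17 (adjusted p = 6e-05, edgeR). In all 3 the YFP libraries lay above both Lgr5-EGFP libraries. Ndufaf4, the assembly factor that was lower, stood at 72.9 and 76.2 CPM against 33.4 to 55.6 CPM (median 45.1), a log2 difference of -0.80 ± 0.18 (adjusted p = 0.00561, edgeR). Without Lgr5-EGFP replicate 2 its adjusted p was 0.0812.

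Cox7a1 had the largest difference of all members. It encodes the form of subunit VIIa known from heart and skeletal muscle, whereas Cox7a2 is the form found in most tissues. Its level was 2.60 and 2.58 CPM in the Lgr5-EGFP libraries, from 3 and 4 counts, and 62.4 to 141 CPM (median 75.8) in the YFP libraries, from 17 to 101 counts. The fitted log2 difference was 5.03 ± 0.45 (adjusted p = 1.3e-05, edgeR). Over the groups, 267 counts of 3114034 against 7 counts of 2137194 gave a ratio of 26.2, with an exact 95% interval of 12.5 to 65.7 that covers counting error only. In organoids the level was 128 and 87.6 CPM in whole organoids, 34.6 and 19.6 CPM in Reg4-positive cells and 3.95 CPM in Lgr5-positive cells. The sorted organoid libraries thus lay below both whole organoid libraries.

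Among kinds of wells the enterocyte-like ones held the most of it. The classes were read from clusters made without the members and named from marker genes, and the values describe them, with no test. CPM of wells are relative to the plain total of their gene counts. Enterocyte-like wells of the intestine held Cox7a1 at 500.4 CPM, with a count in 35 of 41 wells. Cluster 7 of the intestine, led by Gip, Dmbt1 and Krt19 and left unnamed, held 77.7 CPM. Goblet-like wells held 35.1 CPM, and Paneth-like wells 15.8, with a count in 24.1% of wells at a median depth of 17354 counts. The 3 clusters that held most Lgr5-EGFP wells had 2.13, 0 and 0 CPM. In organoids, enterocyte-like wells held 219 CPM, stem-like wells 2.34, and Paneth-like wells had 0 counts in 63 wells, whose median depth was 7331 counts. Enterocyte-like wells were shallower than these, with a median of 6457 counts in the intestine and 6754 in organoids.

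Promoter sequence was available in the RefSeq table (build GRCm38.p6) for 73 of the 88 members. Among the others were Atp5a1, Atp5f1, Atp5s, Atp5sl, Cox4i1, Cox6c, Ndufa2, Ndufaf6, Ndufb9, Ndufs1, Sdhc, Uqcrb, Uqcrc2 and Uqcrq. Windows ran from 250 bases before to 50 bases after the annotated start, and 4 motifs were searched on both strands: that of NRF1 (GCGCA and GCGC with any 1 base between them), CCGGAAGT of ETS factors such as GABP, AAGATGGC of YY1 and TCAAGGTCA of ERR receptors, factors known to act on respiratory chain genes. The NRF1 letters were present in 19 of 73 members (26.03%), beside 5.19% of all 27025 genes in the table and 7.17% of its protein-coding genes. The YY1 letters were present in 12.3% of members beside 3.19% of all genes and 3.57% of protein-coding genes. The ETS letters were in 6.85% of members, beside 4.31% and 5.69%, and the ERR letters in 2.74%, beside 0.466% and 0.377%. By complex, the NRF1 letters were in 6 of 13 genes of complex V, 7 of 33 of complex I and 1 of 11 of complex IV. They were also in 2 of 5 genes of complex II, 1 of 5 of complex III and 2 of 6 assembly factors, among them Ndufaf4. The 3 stretches below run from base 250 to base 51 before the start, with motif letters in capitals. They show a gene at the top of the YFP contrast without any of the 4 motifs (Cox7a1) beside a pair with NRF1 letters (Cox6a1 and Atp5h). Cox7a1 lies on the plus strand at chr7:30183921-30184120, and Cox6a1 and Atp5h lie on the minus strand at chr5:115349009-115349208 and chr11:115419970-115420169. A match is a string of letters, not a site shown to be bound.
Cox7a1: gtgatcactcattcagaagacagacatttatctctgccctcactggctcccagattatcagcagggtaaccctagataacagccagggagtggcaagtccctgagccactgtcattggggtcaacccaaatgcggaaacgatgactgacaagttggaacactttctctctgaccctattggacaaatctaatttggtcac
Cox6a1: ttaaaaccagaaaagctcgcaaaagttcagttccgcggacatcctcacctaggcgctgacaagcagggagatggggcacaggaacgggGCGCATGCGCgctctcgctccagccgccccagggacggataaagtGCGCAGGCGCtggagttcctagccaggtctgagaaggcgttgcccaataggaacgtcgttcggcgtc
Atp5h: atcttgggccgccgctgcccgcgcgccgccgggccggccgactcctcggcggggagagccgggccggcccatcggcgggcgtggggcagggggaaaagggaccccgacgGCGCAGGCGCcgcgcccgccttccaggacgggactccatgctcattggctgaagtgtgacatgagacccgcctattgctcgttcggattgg

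Within the YFP plates the same genes could be compared between kinds of cells that shared a library. Enterocyte-like wells held members at 6.96%, 6.32%, 5.80% and 7.20% of gene counts in YFP replicates 1, 2, 3 and 5. Cluster 7 held 5.25% to 6.20%, cluster 3, which was led by cell cycle genes such as Ube2c, Cdk1 and Ccna2, 4.27% to 4.91%, and goblet-like wells 3.48% to 4.95%. Paneth-like wells were far below at 2.20% and 1.90% (YFP replicates 2 and 3), and 1.48% in Lgr5-EGFP replicate 2. The cluster of these wells raised 16 Paneth markers and also 6 goblet markers. Enterocyte-like wells exceeded goblet-like wells of the same plate by 1.43 to 1.67 times in 4 of 4 plates. Paneth cells spend much of their RNA on defensins: marker genes took 31.3% to 40.5% of their counts here, and without marker genes in the total the Paneth-like shares were 2.16% to 3.67%. They were still below the enterocyte-like wells of the same plate, which exceeded them 1.78 and 1.94 times on that scale. The 12 enteroendocrine-like wells of the intestine, too few per plate to give separately, held 3.14% together (exact 95% interval 3.0% to 3.3%, counting error only).

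**Figure D3:**
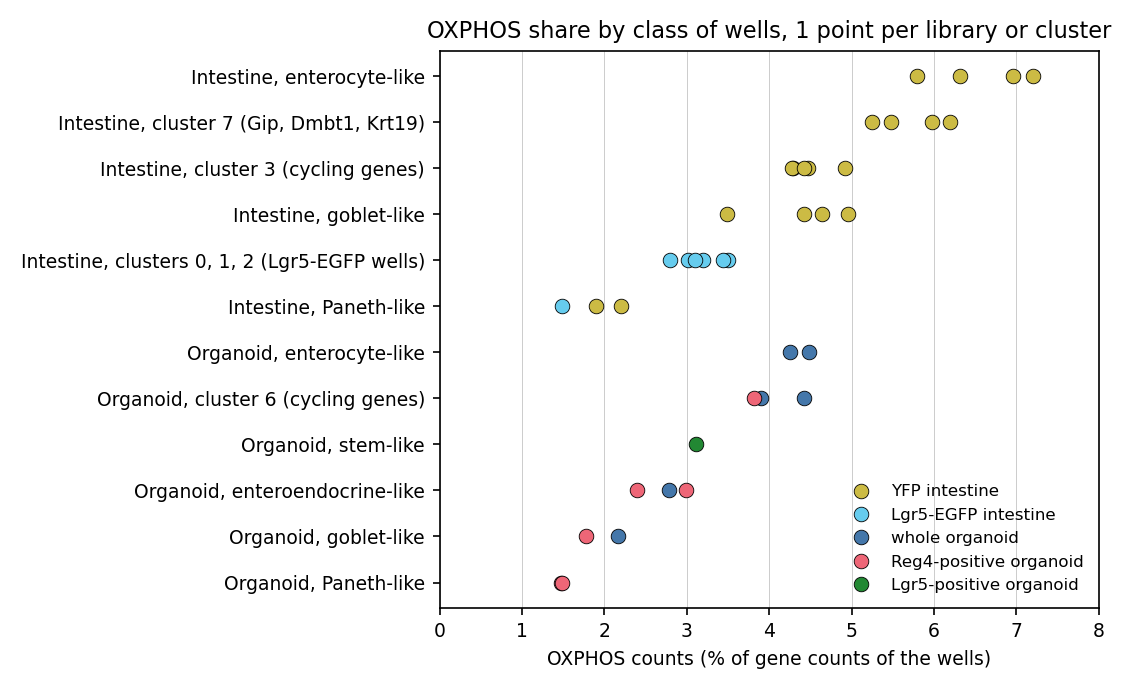
Percent of gene counts from the 88 members (horizontal axis) by class of wells, with 1 point per library, or per library and cluster for the Lgr5-EGFP wells. Enterocyte-like wells of the intestine lie at 5.80% to 7.20%, and Paneth-like wells of both sources lie at 1.47% to 2.20%, a range they share with the goblet-like wells of organoids.

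No cluster of the intestine raised enough stem cell markers over the others to be named stem-like. The Lgr5-EGFP wells fell mostly into 3 unnamed clusters that held members at 2.79% to 3.50%, a range that lay below the enterocyte-like wells, cluster 7 and cluster 3, met the lowest goblet-like value and lay above the Paneth-like wells. In organoids, stem-like wells held 3.12%, and 68 of the 71 came from the Lgr5-positive library. Enterocyte-like wells of whole organoids held 4.48% and 4.25%, and wells of cluster 6, which raised 6 of 12 cell cycle markers, 4.42% and 3.90% in the same libraries. The gap between enterocyte-like wells and cluster 6 in organoids was narrower than that between enterocyte-like wells and cluster 3 in the intestine. These 2 clusters were not alike by the markers. Cluster 3 raised 0 of the 12 cell cycle markers 2-fold and had 3 of them among its first 10 genes, where cluster 6 had 1. The difference between these gaps was not tested. Enteroendocrine-like wells held 2.79%, 2.39% and 2.99%. Goblet-like wells, whose cluster also raised 8 Paneth markers, held 2.16% and 1.78%. Paneth-like wells, whose cluster raised 15 Paneth markers and also 10 goblet markers, held 1.47% and 1.49%.

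Member by member, the enterocyte-like wells were set against cluster 3 in each of 4 YFP plates. Of 88 members 53 were higher in the enterocyte-like wells of all 4 plates, and 4 were higher in none (Atp5g2, Ndufa7, Ndufaf6 and Cox6b2). Equal values counted as not higher. Cox6b2 had only 7 to 8 counts and Ndufaf6 15 to 22 over all kept wells of each of these plates. At 1000 CPM or more, 20 of 20 members were higher in every plate, beside 28.7% of 143 other genes, of which 66.4% were lower in every plate. At 300 to 1000 CPM the shares were 29 of 47 members and 48.1% of 318 other genes. At 100 to 300 CPM they were 3 of 8 members (37.5%) and 31.2% of 1246 other genes, so the members lay near the other genes there. Below 100 CPM, and for the counts by complex that follow, no share of other genes was taken. Complex III had 6 of 8 members higher in every plate, complex IV 11 of 13, complex V 13 of 17, complex II 4 of 6 and complex I 19 of 37, while none of the 7 assembly factors was.

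Uqcrb, a subunit of complex III, stood at 961, 748, 783 and 1300.3 CPM in the enterocyte-like wells of YFP replicates 1, 2, 3 and 5, and at 399.7, 426, 384 and 525 in cluster 3. Sdhb stood at 1137, 941, 725 and 650.1 against 425, 457, 473 and 410.0. Both were higher in every plate by with a ratio of means of 2.19 and 1.96. Cox7a1 exceeded all others, at 718, 370, 493 and 366 against 38.1, 30.4, 12.8 and 24.1, a ratio of 18.5.

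The genes for the c subunit of ATP synthase parted ways in this comparison. The mature protein is the same from all 3 genes, which differ in their import sequences. Atp5g3 stood at 2838, 2614, 3059.5 and 3169 CPM in enterocyte-like wells and at 1478, 1689.5, 1292 and 1791 in cluster 3. Atp5g2 went the other way, at 674, 765, 638 and 813 against 952, 913, 1190.0 and 1043. No value of either gene in one kind of well reached the range of the other. Atp5g1 was higher in 4 of 4 plates with a ratio of 1.29. Between libraries, Atp5g3 took 46.5% to 58.6% of the family's counts, Atp5g1 22.3% to 30.6% and Atp5g2 16.3% to 27.2%, the last being lowest in whole organoids.

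**Figure D4:**
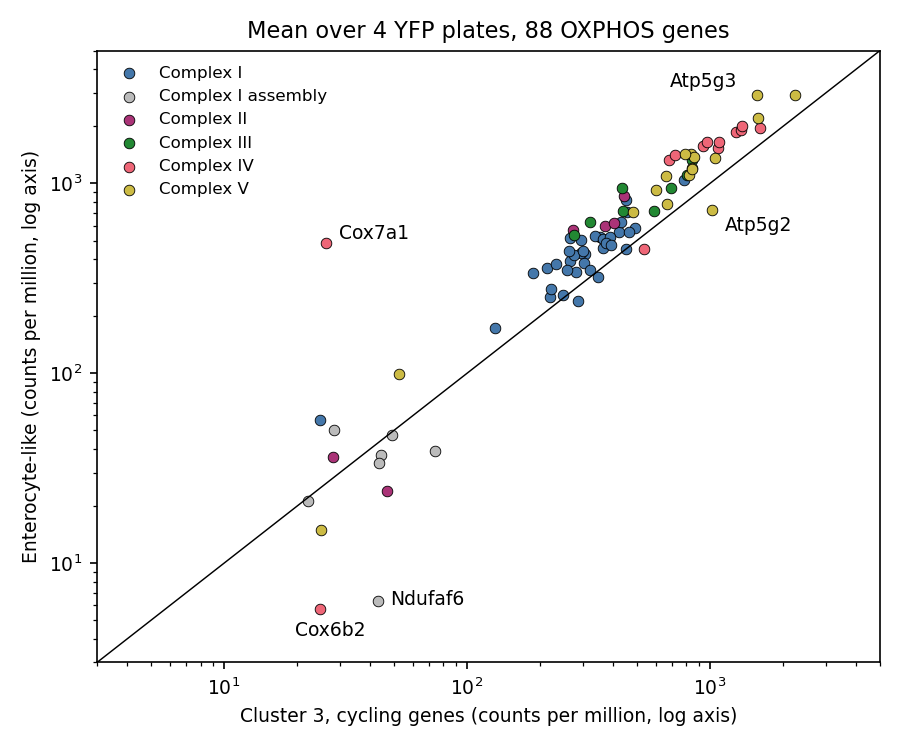
Mean CPM over 4 YFP plates (log axes) of each of the 88 members in enterocyte-like wells (vertical) and in the wells of cluster 3, led by cell cycle genes (horizontal). Most members lie above the line of equality, Cox7a1 far above it (ratio of means 18.5), and Atp5g2 and the assembly factor Ndufaf6 below it.

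In organoids the sorted populations lay below whole organoids, but few single genes passed the test. Each organoid group was 1 culture from 1 mouse of its own genotype. The sort, the mouse and the culture thus cannot be told apart, in the Lgr5-positive and interaction comparisons below as well. Reg4 marks enteroendocrine and Paneth cells. Of 75 kept wells of Reg4-positive replicate 1, 35 were Paneth-like, 24 goblet-like and 7 enteroendocrine-like. Of 81 in replicate 2, 50 were enteroendocrine-like, 21 Paneth-like and 1 goblet-like. Of 87 members 82 had a lower fitted level in Reg4-positive cells than in whole organoids, with a median log2 difference of -0.78 beside 0.01 for all genes. Only 2 were called lower, Cox7a1 and Sdhd, and none higher, where 4.07% of all genes were called lower, 2.39% higher and 6.46% in either direction. At an unadjusted p under 0.05 the count was 29, all lower, beside 22.0% of all genes in either direction, and in 72 members every Reg4-positive value lay below both whole organoid values, beside 28.2% of all genes, and in 3 above both, beside 25.8%. Sdhd, a membrane anchor of complex II, stood at 157 and 79.2 CPM against 488 and 406 CPM, a log2 difference of -1.95 ± 0.40 (adjusted p = 0.0306, edgeR). Cox7a1 differed by -2.07 ± 0.41 (adjusted p = 0.0258, edgeR). Sdhb came next at -1.43 ± 0.35 (adjusted p = 0.0502, edgeR). When 1 fit spanned all 5 groups, 38 members were called lower beside 10% of all genes. Without Reg4-positive replicate 2 the count was 6, and without replicate 1 it was 1. Paneth markers took 6.34% to 16.9% of the counts of Reg4-positive libraries and 0.0447% to 0.696% of those of whole organoids. Enteroendocrine markers took 0.828% to 2.92% against 0.0145% to 0.389%, and goblet markers 0.874% to 2.34% against 0.104% to 0.481%. Their part in the result was not tested. As given above, Paneth-like wells held members at 1.47% and 1.49% of counts.

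Lgr5-positive organoid cells, the cultured stem cells, gave a like picture from 1 library, whose spread was assumed to match that of the other groups. The median log2 difference from whole organoids was -0.66 for the 87 members and -0.03 for all genes. Cox7a1 was the sole member called (lower by 4.74 on the log2 scale, SE 0.67, adjusted p = 0.0162, edgeR), beside 2.97% of all genes called lower, 0.656% higher and 3.63% in either direction. In 74 members the library lay below both whole organoid libraries, beside 41.7% of all genes, and in 7 above both, beside 41.1%. This comparison and that of the Reg4-positive cells share the whole organoid libraries. Uqcrc1, a core subunit of complex III, stood at 108 CPM against 338 and 405 CPM (adjusted p = 0.0721, edgeR). With 1 fit over all 5 groups 16 members were called lower, beside 10.2% of all genes. Enterocyte markers took 0.150% of counts in this library, 0.337% and 0.426% in the Reg4-positive libraries and 4.95% and 2.55% in whole organoids, and their part in these differences was not tested. With wells thinned to 1500 counts none was called, and 4 had an unadjusted p under 0.05. Complex II had the lowest median, -0.94 on the log2 scale, and the assembly factors the highest, -0.02.

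Whether stem cells differed from their surroundings by the same amount in culture and in tissue was asked with an interaction term, which took the difference of Lgr5-positive from whole organoids and subtracted that of Lgr5-EGFP from YFP cells. None of 88 members passed (edgeR), beside 4.39% of all genes (2.32% higher and 2.07% lower), and 6 had an unadjusted p under 0.05, beside 20.3% of all genes. The smallest adjusted p was 0.112, for Atp5g2, with a difference of 1.01 ± 0.34 on the log2 scale (edgeR). With 1 library in 1 of the groups, a p that misses the threshold does not show that the differences were equal.

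Few members were called between culture and intestine, in comparisons that share libraries with those above. Whole organoids held members at 0.919 times the share of YFP cells, and Lgr5-positive organoid cells at 0.968 times that of Lgr5-EGFP cells. Between whole organoids and YFP cells 2 of 88 members were called higher and 3 lower, beside 13.4% and 9.45% of all genes (22.9% in either direction). Enterocyte markers took 2.55% and 4.95% of counts in whole organoids and 0.338% to 0.993% in YFP cells, and Paneth markers 0.0447% to 0.696% and 1.55% to 7.17%, and their part in this comparison, glycolysis included, was not tested. Both organoid values lay above all YFP values in 4 members, beside 20.1% of all genes, and below them in 24, beside 15.4%. The median log2 difference was -0.14 for the members and 0.04 for all genes. Called higher in organoids were Ndufa6, an accessory subunit of complex I (848 and 696 CPM against 473 to 563 CPM, median 478), and Ndufv3, also of complex I (564 and 405 CPM against 233 to 393 CPM, median 264). Their log2 differences were 0.64 ± 0.16 (adjusted p = 0.012, edgeR) and 0.69 ± 0.23 (adjusted p = 0.0439, edgeR). In both the lowest organoid value lay above the highest YFP value. Called lower were Ndufaf1, an assembly factor, by -0.89 ± 0.25 and Ndufs8, an iron-sulfur subunit of complex I, by -0.61 ± 0.20, and Cox6b2. The calls of Ndufa6, Ndufv3, Ndufaf1 and Ndufs8 were lost without whole organoid replicate 1. With each library left out in turn, the log2 difference was 0.485 to 0.773 for Ndufa6 and 0.427 to 0.908 for Ndufv3. It was -1.01 to -0.748 for Ndufaf1 and -0.676 to -0.561 for Ndufs8. The call of Cox6b2 is no result of the test, since this gene became a member through the intestine libraries alone.

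Cox6b2, the form of subunit VIb known from testis, reached the minimum of 20 counts through the intestine libraries alone, which held all of its 56 counts, so that its difference follows from how members were chosen and is given as a description. It had 0 counts in all 5 organoid libraries, over 715 wells and 6891597 counts. Each of the 7 intestine libraries held it, with 11 and 12 counts in Lgr5-EGFP cells and 4 to 8 counts in YFP cells, in 48 of 494 wells. The organoid and intestine libraries thus did not overlap. The level in YFP cells (10.6 CPM on plain totals) was 15.6 times a limit of 3 counts over the group of whole organoids. That in Lgr5-EGFP cells was 3.25 times the same limit in Lgr5-positive organoid cells. The limit allows for counting error on the organoid side only, and the 33 and 23 intestine counts were taken as observed. Its level stayed a small part of the subunit: Cox6b1, the form found in most tissues, took 97.8% to 99.2% of the counts of the pair in intestine libraries.

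Between Lgr5-positive organoid cells and Lgr5-EGFP cells none of 88 members was called by edgeR or by DESeq2, beside 1.44% of all genes called by edgeR (0.762% higher and 0.677% lower), and 2 had an unadjusted p under 0.05 by edgeR, beside 12.0% of all genes, and 5 by DESeq2. Among members of complexes III and V the median log2 differences were 0.08 and 0.19. In 52 members the organoid library lay above both Lgr5-EGFP libraries, beside 37.9% of all genes, and in 20 below both, beside 38.7%.

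**Figure D5:**
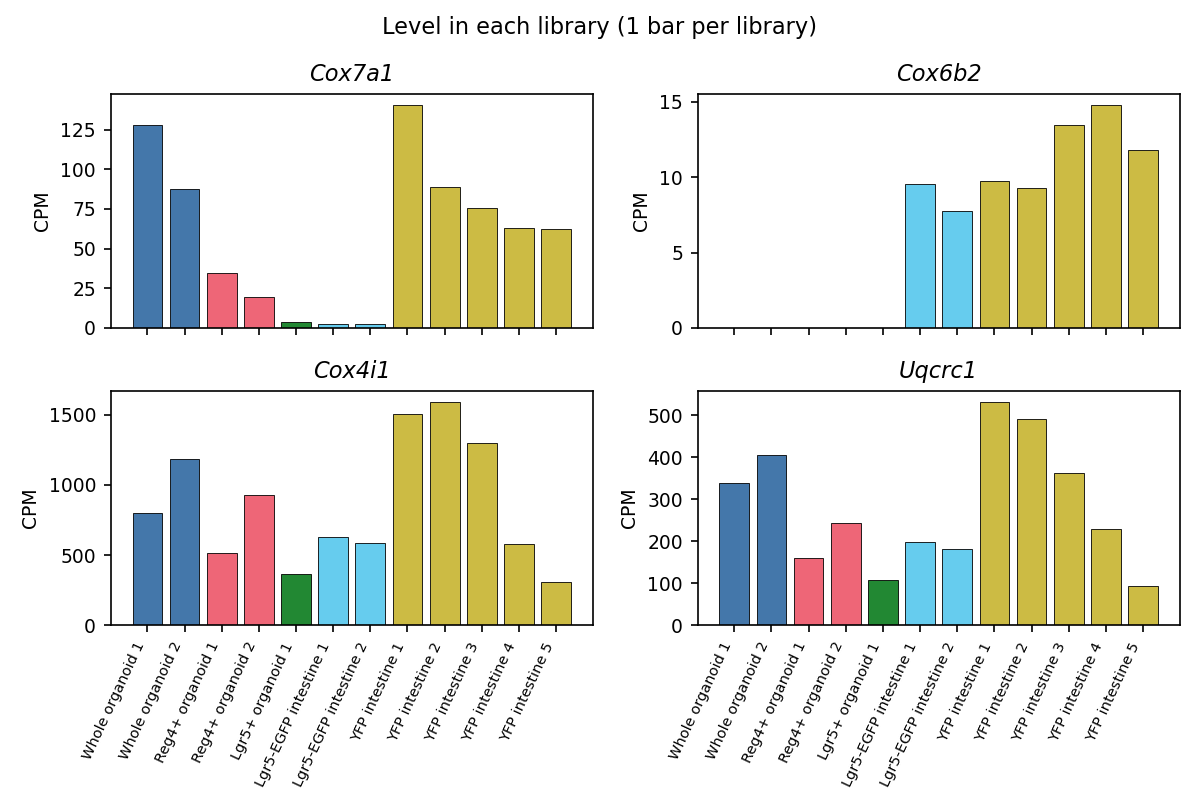
Level (CPM, vertical axis, a separate scale in each panel) of Cox7a1, Cox6b2, Cox4i1 and Uqcrc1 in each of the 12 libraries, 1 bar each. Cox7a1 is high in whole organoid and YFP libraries, Cox6b2 is at 0 in all 5 organoid libraries, and Cox4i1 and Uqcrc1 are low in YFP replicates 4 and 5.

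In several isoform families 1 gene held nearly all counts. Cox4i1, Cox6a1, Cox8a and Ndufa4 held at least 99.9% of the counts of their families in every library, while Cox4i2, Cox6a2, Cox8b, Cox8c and Ndufa4l2 had at most 2 counts in all. The Cox7a family and the c subunit genes of ATP synthase, described above, were divided. Cox7a2 took 53.5% to 64.9% of its counts in whole organoid, Lgr5-EGFP and YFP libraries, and 32.0% and 44.2% in the Reg4-positive libraries, where Cox7a2l took 63.7% and 53.9%. Cox7a2l stood at 514 and 527 CPM in Reg4-positive cells and at 431 and 341 CPM in whole organoids, while Cox7a2 stood at 258 and 432 CPM against 859 and 792 CPM. Neither difference passed the test (adjusted p = 0.483 and 0.0919, edgeR).

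Other genes of energy metabolism were taken from lists chosen by pathway. The glycolysis list also held transporters (Slc2a1, Slc16a1, Mpc1 and Mpc2), lactate dehydrogenases (Ldha and Ldhb) and pyruvate dehydrogenase kinases (Pdk1 to Pdk4). The tricarboxylic acid cycle list also held pyruvate dehydrogenase genes (Pdha1, Pdhb and Dlat) and Pcx, pyruvate carboxylase. In YFP against Lgr5-EGFP cells, 12 of 17 tricarboxylic acid cycle genes were called higher and none lower, with Mdh2, the mitochondrial malate dehydrogenase, at 826 against 325 CPM (log2 difference 1.35 ± 0.17). Of 32 assembly factors, carriers and electron carriers outside the naming rule 12 were called higher and none lower. They included Cyc1, the cytochrome c1 of complex III, at 717 against 281 CPM, and Slc25a5, an ADP/ATP carrier, at 1798 against 871 CPM. Mitochondrial ribosomal protein genes were called higher in 17 of 76 and lower in 1, nearer to the shares of all genes given above for this comparison, 14.7% and 11.0%. Of 19 glycolysis genes 12 were called higher and 1 lower, Hk2, a hexokinase, at 40.6 against 154 CPM. Among 16 regulators Hnf4a and Ppara were higher, and Pprc1 and Ppargc1b, both coactivators of the PGC-1 family, lower.

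Between culture and tissue, glycolysis genes were called higher in organoids. Of 23 glycolysis genes 15 were called higher in whole organoids than in YFP cells and none lower, beside 13.4% of all genes called higher, with a median log2 difference of 1.48. Gapdh, glyceraldehyde-3-phosphate dehydrogenase, stood at 5173 against 958 CPM, a log2 difference of 2.43 ± 0.18. Between Lgr5-positive organoid and Lgr5-EGFP cells 8 of 23 were called higher, among them Pkm, pyruvate kinase, at 766 against 160 CPM. The tricarboxylic acid cycle gave 1 gene higher (Mdh2) and 5 lower of 17 in whole organoids against YFP cells, the lower ones including all 3 subunits of NAD-dependent isocitrate dehydrogenase (Idh3a, Idh3b and Idh3g). Regulators were split, with Ppara, Esrra, Ppargc1a and Ppargc1b higher in organoids and Tfam, Tfb1m, Tfb2m and Myc lower. In organoids, glycolysis genes were also lower in the sorted cells, 6 of 22 in Reg4-positive and 3 of 22 in Lgr5-positive cells against whole organoids, beside 4.07% and 2.97% of all genes, and none was higher. Enterocyte markers were also at a smaller share in these sorted cells, as given above, and their part in this was not tested.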

How the data were processed

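Wells were sequenced by CEL-seq with a 4-base random barcode per molecule, per the labels' protocols. The deposited tables hold estimated counts, which the authors derived from how many different barcodes each gene showed, with a correction for barcodes drawn repeatedly. Inverting that correction with 256 barcodes gave whole numbers for 3897264 of 3897290 nonzero values (tolerance 1e-06), and the other 26 were saturated at 1597.01. Alignment used BWA 0.6.2-r126 and mm10 (GRCm38), per the submitters' processing notes, while for the counter and the annotation the sources used here give nothing. Tables of 192 further wells matched no label and were left out, as was 1 row not in every table.

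Estimated counts were rounded per well (largest shift 0.495). Wells of at least 1500 gene counts (spike-ins left out) were summed per passage or plate. Tests used the quasi-likelihood method of edgeR 4.0.16 under R 4.3.3, after filterByExpr and TMM scaling, with p-values adjusted by Benjamini-Hochberg over all genes and called at 0.05. One fit covered the organoid groups, another the intestine groups, and comparisons of culture with intestine 1 fit over all 5 groups. Standard errors were the log2 difference over the root of F. The code was tested on simulated data. Wells were clustered with scanpy 1.11.5 without the members (2000 variable genes, 20 components, Leiden resolution 1), and a cluster was named where at least 3 markers of a class were raised 2-fold in 25% of its wells and its first 10 genes held more markers of that class than of any other. Named genes were up to 10 members called in each direction by adjusted p, the leading member of each complex per group, isoform families and up to 4 called genes per list, with some further listed genes, Uqcrb and other members of the comparison within YFP plates named after their values were seen. The members and lists were chosen with earlier results of these data known. The ranges of level, the interaction term and the member values by class were added after seeing the data. Alternatives were DESeq2 1.42.0, plain totals, no filter, a minimum of 3000 counts, thinned wells, uncorrected barcode numbers, other groups in the fit, other clusterings and each library left out. Same-numbered replicates came from different cultures or sorts, so the main fits had no replicate block. Some single-gene results are not reported here.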

Additional observations from a re-analysis of the deposited data

Results flagged for a closer look

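Of 33 values examined for a library far from the rest of its group in the 5 YFP libraries (the share of each complex and the named members), 1 stood out. Ndufa6 was at 563 CPM in YFP replicate 5, while the other 4 YFP libraries lay between 473 and 499 CPM. Chance alone sets apart about 1 in 20 groups. Without that library the log2 difference of Ndufa6 between whole organoids and YFP cells was 0.68, beside 0.64 with it.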

How the results depend on the processing

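The count of members called depended on the processing where it was small, and the share of all genes called moved too. In the Reg4-positive comparison, 3.27% of all genes were called lower with DESeq2, 6.13% with no filter on low counts and 6.53% with thinned wells. In a fit of whole organoids and YFP cells alone, 14.1% of all genes were called higher in organoids and 12.1% lower. For Reg4-positive against whole organoids the 2 calls became 6 with DESeq2, 13 with no filter on low counts, 7 with thinned wells, 1 without wells above 100000 counts, 38 in a fit over all 5 groups, and 1 to 6 with each library left out in turn. For Lgr5-positive against whole organoids the 1 call became 2 with DESeq2, 2 with no filter, 0 with thinned wells, 16 in the fit over all groups, and 1 to 2 with libraries left out. For YFP against Lgr5-EGFP cells the 72 calls became 41 with thinned wells and 50 to 74 with libraries left out. For whole organoids against YFP cells the 5 calls became 3 with plain totals, 0 with thinned wells, 11 with only the groups compared, and 1 to 5 with libraries left out. For Lgr5-positive organoid against Lgr5-EGFP cells the count of 0 became 1 with only the groups compared, a fit of 3 libraries whose spread comes from the Lgr5-EGFP pair alone.

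Replicate numbers did not pair the samples (correlations of deviations -0.09, -0.11 and -0.02). With a replicate block the calls were 2, 1, 76 and 2 in the first 4 comparisons, the last falling from 5. For 19 named differences, 253 of 287 alternative values kept their side of the threshold, 34 lost it and 0 reversed. Among the 253 were 15 of Cox6b2, whose difference follows from how members were chosen.

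Shares moved with the total used. Without marker genes the class means were 4.781% (enterocyte-like), 3.080% (enteroendocrine-like), 2.280% (goblet-like) and 2.143% (Paneth-like) in organoids and 3.007% (Paneth-like) in intestine. Paneth-like organoid wells gave 1.672% at resolution 0.5, 1.494% at resolution 2, 1.954% with members kept in the clustering and 1.142% with at least 3000 counts, where stem-like wells gave 2.952% and unnamed organoid wells 3.478%. Without the 50 most counted genes the shares were 3.643% (Lgr5-EGFP), 3.718% (Lgr5-positive organoid), 5.715% (YFP) and 4.907% (whole organoid). Mean well percents gave 3.019% (Lgr5-EGFP) and 2.990% (Lgr5-positive organoid), and barcode numbers before correction 3.217% and 3.139%. Members under 50 CPM, 12 of the 88, rest on few counts.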

Other observations

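Cox4i1 and Uqcrc1 were the members least alike among the YFP libraries. Cox4i1, the ubiquitous form of subunit IV, stood at 1507, 1592 and 1302 CPM in YFP replicates 1 to 3 and at 582 and 307 CPM in replicates 4 and 5. Uqcrc1 stood at 532, 492 and 364 CPM and then at 229.7 and 92.7 CPM. Both were also low in the Lgr5-positive organoid library, at 369 and 108 CPM. The other 60 members over 300 CPM had ratios of replicates 4 and 5 to replicates 1 to 3 between 0.831 and 1.28, against 0.303 for Cox4i1 and 0.348 for Uqcrc1. Of 509 genes over 300 CPM in replicates 1 to 3, 28 had a ratio under 0.5. The most extreme was Rplp2, a cytosolic ribosomal protein gene, at 1286, 1352 and 1300.2 CPM against 18.5 and 15.2 CPM, and at 83.0 CPM in the Lgr5-positive organoid library. These genes were chosen after their values were seen, and the cause was not tested. Neither was called in YFP against Lgr5-EGFP cells (adjusted p = 0.219 and 0.173, edgeR), and the values below both Lgr5-EGFP libraries were those of replicates 4 and 5 for Cox4i1 and of replicate 5 for Uqcrc1.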
